A study of Mus musculus with 8 samples.

Results

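Transcripts of 10 CC chemokine genes, Ccl2, Ccl3, Ccl4, Ccl5, Ccl6, Ccl7, Ccl8, Ccl9, Ccl12 and Ccl22, were compared between the aortas of ApoE-/- and WT mice. The 10 genes were taken by symbol from the 21859 genes with a count in the 8 libraries, and all 10 were found. The study sequenced RNA of whole aortas from 4 ApoE knockout and 4 wild-type mice, all male, 40 weeks old and on a normal diet (chow), with the ApoE-/- line kept on the C57BL/6 background. Each mouse gave 1 library. The knockout mice lack apolipoprotein E from the germline in all tissues, and the labels name no other allele or treatment.

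CC chemokines are small secreted proteins, named for adjacent cysteines, that bind to G protein-coupled receptors on leukocytes and to glycosaminoglycans on the vessel wall. They direct leukocytes out of the blood and within tissue. In atherosclerosis the ligands of Ccr2 are best known for drawing monocytes from bone marrow and blood into the arterial wall, while ligands of Ccr1 act on monocytes, macrophages and T cells.

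Between 23240995 and 23940156 read pairs per library were counted on genes in ApoE-/- mice and between 18375898 and 21664598 in WT mice. The share of all read pairs on genes was 32.3% to 35.6% and 27.9% to 30.2%, that with no feature 50.1% to 54.7% and 56.4% to 58.0%, and the mitochondrial share of gene counts 2.84% to 5.16% and 5.52% to 6.92%, each without overlap between genotypes. Levels are counts scaled to equal library size (CPM), scaled between libraries by the TMM method. Apoe itself, the targeted gene, was at 14.7 to 36.3 CPM in the ApoE-/- libraries and at 536 to 857 CPM in the WT libraries, as the labels say. Myh11, a myosin of smooth muscle, stood at 1884 to 8224 CPM in the 8 aortas. On the first principal component ApoE-/- replicate 1 lay at one end (-66.0) and ApoE-/- replicates 2 and 4 at the other (58.1 and 43.1), with the other 5 libraries from -24.1 to 9.82. Summed CPM of 6 smooth muscle markers was 4678 in ApoE-/- replicate 1, against 10389 or more in each other library. Summed CPM of 6 cardiac muscle markers was 19.9 to 116 in ApoE-/- and 201 to 452 in WT aortas, with Myh6 at 1.18 to 51.3 and 88.6 to 158 CPM. All 6 endothelial markers had negative log2 fold changes and DESeq2 called 3 lower, with sums of 1462 to 2280 and 2075 to 2615 CPM. DESeq2 called 2 of 6 fibroblast markers higher, Lum and Col1a1, with sums of 2895 to 7974 and 3391 to 3694 CPM and Lum at 226 to 797 and 88.7 to 118 CPM. edgeR called 0 in both lists, with 4 and 2 at an unadjusted edgeR p under 0.05. Of all 15077 tested genes, 6330 had a negative log2 fold change and 1713 an unadjusted edgeR p under 0.05. DESeq2 called 255 of the 15077 lower and 470 higher in ApoE-/- aortas. The part of these differences in library make-up and tissue content in the chemokine levels was not tested.

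Mean CPM was higher in ApoE-/- than in WT aortas for all 10 chemokines, and the genotypes did not overlap for 6 of them, Ccl2, Ccl3, Ccl4, Ccl7, Ccl8 and Ccl12. Among the 15077 genes tested, 5.41% had every ApoE-/- library above every WT library. By the quasi-likelihood test of edgeR, with Benjamini-Hochberg adjustment over all tested genes and a threshold of 0.05, Ccl2 was the 1 chemokine that rose, and 0.371% of tested genes rose. DESeq2, a test on the same counts that called 3.12% of tested genes higher in ApoE-/- aortas, called 6 (Ccl2, Ccl3, Ccl7, Ccl8, Ccl9 and Ccl12). limma-voom called Ccl2 and Ccl7, against 0.139% of tested genes called higher. Ccl4 and Ccl22 had too few counts to be tested, and Ccl3 reached 10 counts in ApoE-/- libraries alone, so no count over the tested members is read as support. In whole tissue, a difference in the number of cells of a type and one in RNA per cell cannot be told apart.

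**Figure D1:**
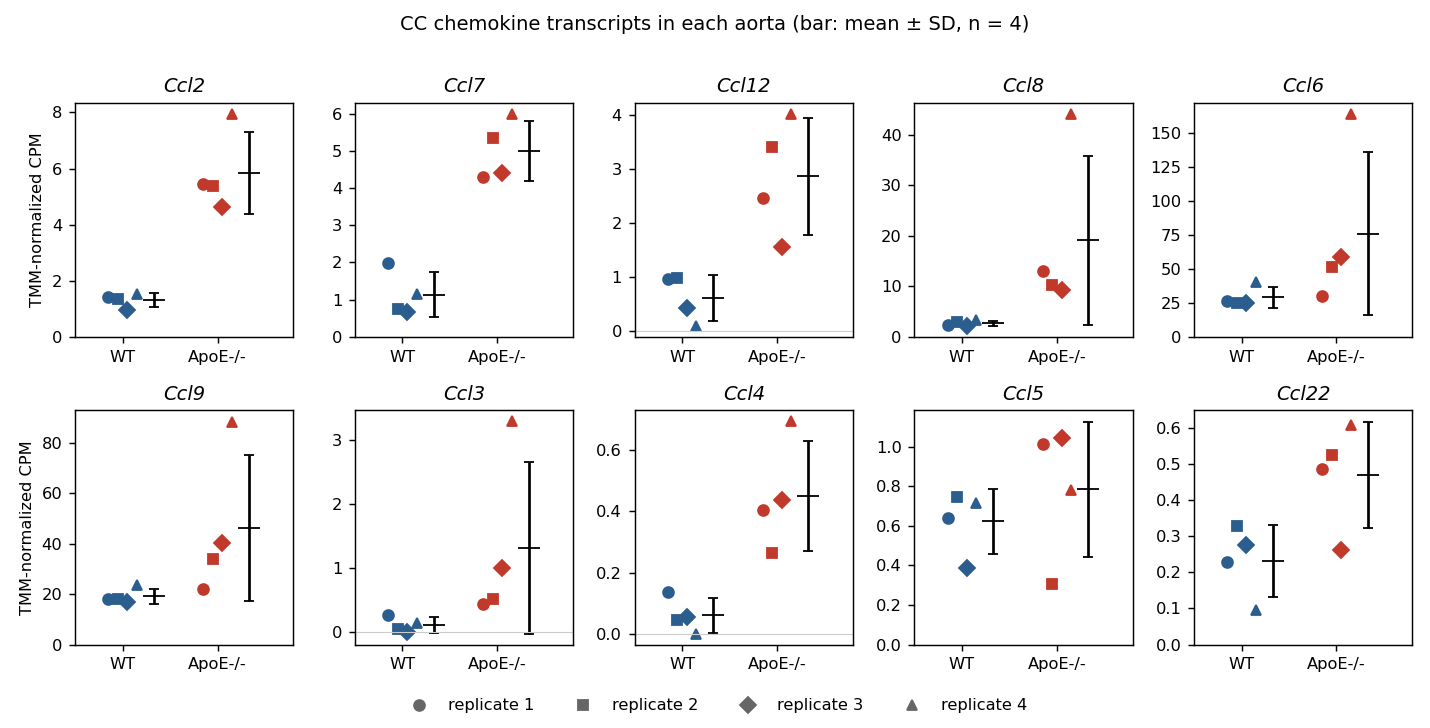
TMM-normalized CPM of each of the 10 CC chemokines (vertical axes, linear, 1 scale per gene) in 4 WT (blue) and 4 ApoE-/- (red) aortas, with the replicate number as symbol and black bars for the mean ± SD. Ccl2 lies at 4.62 to 7.94 CPM in ApoE-/- and 0.942 to 1.53 CPM in WT aortas, Ccl5 overlaps between genotypes, and ApoE-/- replicate 4 is the highest aorta for 9 of the 10 genes.

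The first 4 chemokines lie in one cluster of chromosome 11 (GRCm38 coordinates, GENCODE M21 annotation). Ccl2 (11, 82035571 to 82037453), Ccl7 (82045712 to 82047525), Ccl12 (82101845 to 82103400) and Ccl8 (82115185 to 82116799) are on the plus strand, with 3 exons each at most. Promoter sequence from RefSeq (GRCm38.p6) was at hand for 6 of the 10 genes, Ccl3, Ccl6, Ccl8, Ccl9, Ccl12 and Ccl22. The 250 bases before the start of Ccl12 (chr11:82101595-82101844) and Ccl8 (chr11:82114935-82115184), adjacent genes whose levels did not overlap between genotypes, are printed with 2 letter patterns in capitals.
Ccl12: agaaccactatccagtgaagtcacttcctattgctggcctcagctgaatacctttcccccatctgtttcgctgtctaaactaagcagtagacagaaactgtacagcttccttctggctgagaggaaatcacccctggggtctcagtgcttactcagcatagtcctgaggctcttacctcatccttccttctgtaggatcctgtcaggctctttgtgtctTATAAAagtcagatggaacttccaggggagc
Ccl8: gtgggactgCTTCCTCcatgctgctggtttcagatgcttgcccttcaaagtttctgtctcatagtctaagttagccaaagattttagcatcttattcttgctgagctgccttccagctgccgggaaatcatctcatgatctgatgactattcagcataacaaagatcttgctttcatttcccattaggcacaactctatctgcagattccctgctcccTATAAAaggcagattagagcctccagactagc
Capitals mark a TATA box (TATAAA), which starts 31 bases before the start of Ccl12 and 32 bases before that of Ccl8, and, near the far end of the Ccl8 window, a PU.1 pattern on the minus strand (GAGGAAG, printed as CTTCCTC). Searched on both strands, TATAAA was found in 12.4% and GAGGAAG in 10.6% of 32851 mouse promoter windows of the same length. A match is a description of the letters, not a site.

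Ccl2, the main ligand of Ccr2 and the classical monocyte attractant, was at 5.44, 5.38, 4.62 and 7.94 CPM in ApoE-/- replicates 1 to 4. In WT replicates 1 to 4 it was at 1.42, 1.36, 0.942 and 1.53 CPM. Every ApoE-/- aorta was thus above every WT aorta, and replicate 4 was the highest of its genotype in both. The counts behind these levels were 106 to 183 in ApoE-/- and 17 to 32 in WT libraries. Ccl2 rose by 2.15 on the log2 scale (SE 0.25, n = 4 mice per genotype, 95% interval 1.57 to 2.72, edgeR adjusted p = 0.0355, DESeq2 adjusted p = 1.2e-10). Of all tested genes, 0.637% had a log2 fold change as high or higher. The edgeR call was held without ApoE-/- replicate 1 but was lost without any one of the other 7 mice (adjusted p = 0.0508 to 0.146), where edgeR called 0 to 17 of all genes, while DESeq2 called Ccl2 without each of the 8 mice in turn.

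Ccl7, another ligand of Ccr2 needed for the release of monocytes from bone marrow, had a profile close to that of Ccl2. It was at 4.30, 5.34, 4.40 and 5.99 CPM in ApoE-/- replicates 1 to 4 and at 1.97, 0.749, 0.665 and 1.15 CPM in WT replicates 1 to 4. The genotypes did not overlap, with WT replicate 1 the highest control. The log2 ratio, 2.13 (SE 0.36), was past the DESeq2 threshold (adjusted p = 2.97e-06) and just outside that of edgeR (adjusted p = 0.0526). The ratio of Ccl2 to Ccl7 counts was 1.01 to 1.33 in ApoE-/- and 0.721 to 1.81 in WT libraries, with overlap.

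Ccl12 is a mouse ligand of Ccr2 with no direct human counterpart. ApoE-/- replicates 1 to 4 had 2.48, 3.41, 1.57 and 4.04 CPM, and WT replicates 1 to 4 had 0.964, 0.983, 0.443 and 0.0957 CPM, the last of which was 2 counts. All ApoE-/- values were above all WT values, with the lowest ApoE-/- aorta, replicate 3, at 1.57 CPM. The fitted log2 ratio was 2.19 (SE 0.60, edgeR adjusted p = 0.166, DESeq2 adjusted p = 0.0136), and the DESeq2 call was lost without ApoE-/- replicate 2, ApoE-/- replicate 4 or WT replicate 3 (adjusted p = 0.0728 to 0.0879).

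Ccl8, an attractant of leukocytes, had the widest spread of CPM among ApoE-/- aortas in the first cluster. ApoE-/- replicates 1 to 4 stood at 13, 10.2, 9.23 and 44.1 CPM, and WT replicates 1 to 4 at 2.29, 2.95, 2.22 and 3.26 CPM. The genotypes were apart, and ApoE-/- replicate 4 lay far above the other 3 knockout aortas, which were close to each other. The fitted log2 ratio was 2.83 (SE 0.55, edgeR adjusted p = 0.0660, DESeq2 adjusted p = 1.02e-05), a value that 0.305% of tested genes reached. Without ApoE-/- replicate 4 it was 2.01 (SE 0.21, edgeR adjusted p = 0.05005, DESeq2 adjusted p = 2.18e-13), and without ApoE-/- replicate 1 it was 2.97 (edgeR adjusted p = 0.0317).

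Inside the same cluster, between Ccl7 and Ccl12, lies Ccl11 (11, 82057823 to 82062955), the eosinophil attractant eotaxin, which is not among the 10 genes. It was at 16.4, 16.3, 11.6 and 23 CPM in ApoE-/- replicates 1 to 4 and at 16.8, 18.2, 10.2 and 21.0 CPM in WT replicates 1 to 4. Between genotypes it differed by 0.03 on the log2 scale (SE 0.26, 95% interval -0.58 to 0.63, edgeR adjusted p = 0.985). The interval lies below the fitted value of each of its 4 neighbours, 2.13 to 2.83. Set against Ccl11 in the same library, the log2 level of Ccl2 was -1.58 to -1.32 in ApoE-/- and -3.70 to -3.32 in WT aortas. The like difference for Ccl8 was -0.67 to 0.93 in ApoE-/- and -2.83 to -2.16 in WT aortas. Ccl11 was singled out after its values were seen, so these ranges carry no test.

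**Figure D2:**
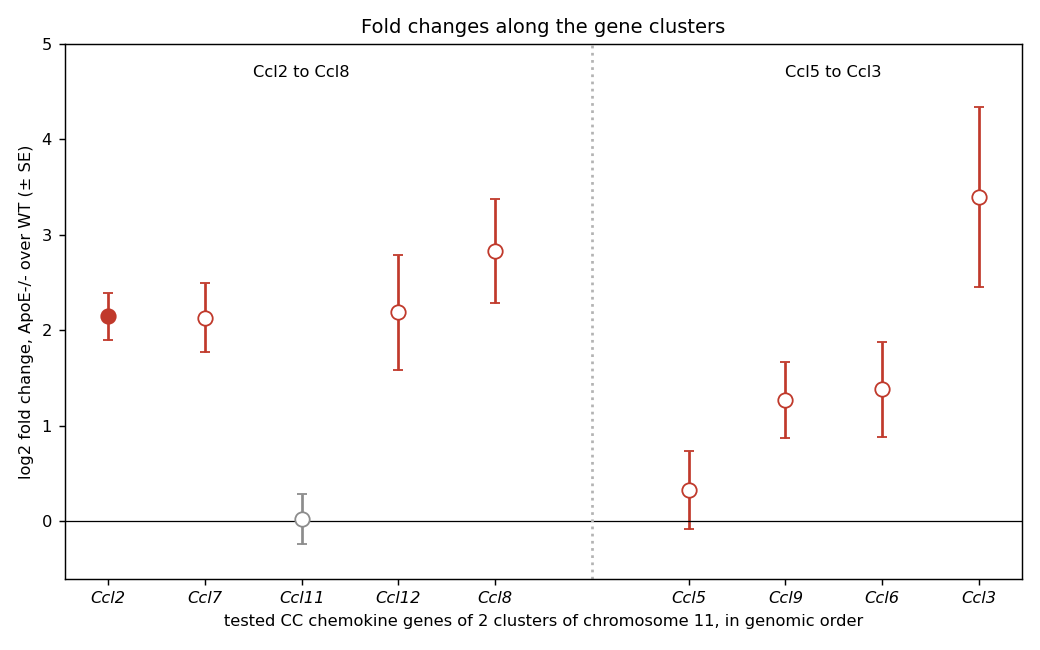
Log2 fold change of ApoE-/- over WT (vertical axis, points, bars show the SE) for the tested CC chemokines of 2 clusters of chromosome 11, in genomic order along the horizontal axis and not to scale. Filled points passed the edgeR threshold, open points did not, and Ccl11 (grey) is not one of the 10 genes. Ccl11 lies at 0.03 between neighbours at 2.13 to 2.83, and Ccl5 lies at 0.33 at the start of the other cluster.

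A second cluster begins 1409 kb further along chromosome 11 and holds Ccl5 (83525778 to 83530518), Ccl9 (83572919 to 83578636), Ccl6 (83587882 to 83593087), Ccl3 (83647844 to 83649355) and Ccl4 (83662584 to 83664683). Ccl4 is on the plus strand and the other 4 on the minus strand. Ccl6 and Ccl9, chemokines of mouse myeloid cells that act through Ccr1, took the most counts of the 10 genes. The 250 bases before their starts, Ccl6 (chr11:83593088-83593337) and Ccl9 (chr11:83578637-83578886), both read on the minus strand and shown because these adjacent genes had like profiles, share none of the 5 letter patterns searched.
Ccl6: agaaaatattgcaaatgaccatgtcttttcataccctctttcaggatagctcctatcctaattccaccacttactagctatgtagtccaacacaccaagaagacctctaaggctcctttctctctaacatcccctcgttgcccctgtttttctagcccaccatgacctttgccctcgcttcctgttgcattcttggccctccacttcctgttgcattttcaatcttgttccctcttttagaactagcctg
Ccl9: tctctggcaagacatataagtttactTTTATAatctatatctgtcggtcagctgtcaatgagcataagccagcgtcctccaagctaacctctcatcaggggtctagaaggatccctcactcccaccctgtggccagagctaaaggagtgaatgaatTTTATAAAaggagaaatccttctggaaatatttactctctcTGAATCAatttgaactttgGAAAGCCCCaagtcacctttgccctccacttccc
Capitals in the Ccl9 window mark the letters TATAAA, or TTTATA on the reverse strand, which start 224, 94 and 92 bases before the gene. The matches at 94 and 92 bases, on opposite strands, overlap. Capitals also mark an AP-1 pattern TGANTCA that starts 53 bases before the gene, and a kappaB pattern GGGNNTTTC on the reverse strand that starts 34 bases before it. AP-1 letters were found in 6.75% and kappaB letters in 3.72% of promoter windows. The Ccl6 window held none of the 5 patterns, and the C/EBP pattern TTGCNNAA, found in 9.56% of windows, was in none of the 6 member windows.

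Ccl6 was at 29.9, 51.5, 58.8 and 164 CPM in ApoE-/- replicates 1 to 4 and at 26.3, 24.6, 25.3 and 40.4 CPM in WT replicates 1 to 4. ApoE-/- replicate 1 fell within the WT range, and replicate 4 was far above the rest. The fitted log2 ratio was 1.38 (SE 0.50, edgeR adjusted p = 0.309, DESeq2 adjusted p = 0.0802). Without ApoE-/- replicate 4 it was 0.68, and without ApoE-/- replicate 1 it was 1.65, which DESeq2 called (adjusted p = 0.00154).

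Ccl9 put the ApoE-/- aortas in the same order as Ccl6. Its levels were 22.1, 34.0, 40.2 and 88.3 CPM in ApoE-/- replicates 1 to 4 and 18.1, 18.0, 16.9 and 23.5 CPM in WT replicates 1 to 4. Again ApoE-/- replicate 1 was below the highest WT aorta, and the other 3 knockout aortas were above all controls. The fitted log2 ratio was 1.27 (SE 0.39, edgeR adjusted p = 0.220, DESeq2 adjusted p = 0.0384), and it was 0.75 without ApoE-/- replicate 4. The DESeq2 call was lost without ApoE-/- replicate 3 or 4 or any one WT mouse (adjusted p = 0.0763 to 0.166). The log2 ratio was 1.5 without ApoE-/- replicate 1, where edgeR called Ccl9 too (adjusted p = 0.0450). The ratio of Ccl6 to Ccl9 counts was 1.35 to 1.86 in ApoE-/- and 1.37 to 1.72 in WT libraries, so the proportion of this pair overlapped between genotypes.

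Ccl3, a macrophage inflammatory protein that acts on Ccr1, was rare in WT aortas, with 6, 1, 0 and 3 counts in WT replicates 1 to 4. ApoE-/- replicates 1 to 4 had 11, 12, 23 and 76 counts, or 0.446, 0.525, 1.00 and 3.30 CPM. The genotypes did not overlap, and ApoE-/- replicate 4 held most of the counts. The fitted log2 ratio was 3.40 (SE 0.95, edgeR adjusted p = 0.170, DESeq2 adjusted p = 0.0187). The DESeq2 call was lost without WT replicate 2, 3 or 4 (adjusted p = 0.0662 to 0.0941), the edgeR value was 4.21 without WT replicate 1, and without ApoE-/- replicate 2, 3 or 4 the gene missed the filter on low counts. Over pooled libraries, 122 against 10 counts gave a ratio of 10.7 after scaling to library size (exact 95% interval 5.63 to 22.9, counting error only).

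Ccl4, its neighbour and another macrophage inflammatory protein, also had few counts. ApoE-/- replicates 1 to 4 yielded 10, 6, 10 and 16 read pairs, and WT replicates 1 to 4 yielded 3, 1, 1 and 0. Every ApoE-/- aorta was above every WT aorta (two-sided exact permutation test of CPM, p = 0.0286, the lowest value this design can give). With no filter on low counts, edgeR gave a log2 fold change of 2.77 (SE 0.66, adjusted p = 0.121). The pooled counts, 42 against 5, gave a ratio of 7.38 after scaling to library size (exact 95% interval 2.92 to 23.9, counting error only).

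Ccl5, made by T cells, NK cells and platelets and a ligand of Ccr1, was at 1.01, 0.306, 1.05 and 0.781 CPM in ApoE-/- replicates 1 to 4. In WT replicates 1 to 4 it was at 0.643, 0.749, 0.388 and 0.718 CPM. The genotypes overlapped through ApoE-/- replicate 2, the lowest aorta of all, while the other 3 knockout aortas, at 0.781 to 1.05 CPM, lay above the highest WT aorta. The fitted log2 ratio was 0.33 (SE 0.41, 95% interval -0.61 to 1.26, edgeR adjusted p = 0.839), an interval that leaves room for a rise or a fall. Cd3e, a chain of the T cell receptor complex, was at 0.525 to 0.974 CPM in ApoE-/- and 0.111 to 0.749 CPM in WT aortas. Summed CPM of 9 T and NK cell markers was 4.90 to 10.2 in ApoE-/- and 2.33 to 4.86 in WT aortas.

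Ccl22, a dendritic cell and macrophage product that acts on Ccr4, is the member outside both clusters (chromosome 8, 94745590 to 94751699, plus strand). ApoE-/- replicates 1 to 4 yielded 12, 12, 6 and 14 read pairs of this gene, and WT replicates 1 to 4 yielded 5, 7, 5 and 2. ApoE-/- replicate 3 lay among the WT aortas on the CPM scale (two-sided exact permutation test, p = 0.0857). Pooled counts, 44 against 19, gave a ratio of 2.03 after scaling to library size (exact 95% interval 1.16 to 3.69, counting error only), and the unfiltered edgeR fit gave an adjusted p of 0.508. Next to it, Cx3cl1, the fractalkine gene, differed by 1.7 on the log2 scale (SE 0.42, edgeR adjusted p = 0.120, DESeq2 adjusted p = 0.00272), without overlap between genotypes. Cx3cl1 was named after its values were seen, and the other tested genes within 200 kb of Ccl22 overlapped between genotypes.

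Per kb of annotated exon, Ccl6 had the highest level in ApoE-/- aortas, 42.4 ± 33.4 CPM per kb (SD, n = 4). Ccl8 followed at 37.5 ± 32.7 and Ccl9 at 15.2 ± 9.55 CPM per kb, neither apart from the gene before it by more than the spread. Ccl7 at 6.25 ± 1.00, Ccl12 at 5.35 ± 2.01 and Ccl2 at 5.14 ± 1.27 CPM per kb were within their spread of each other. Ccl3, at 1.72 ± 1.75 CPM per kb, Ccl5, at 0.820 ± 0.356, and Ccl4, at 0.681 ± 0.273, came next, again within their spread, and Ccl22 was lowest at 0.202 ± 0.0637 CPM per kb.

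In WT aortas Ccl6 was again highest, at 16.2 ± 4.19 CPM per kb (SD, n = 4). Ccl9 at 6.28 ± 0.967 and Ccl8 at 5.24 ± 0.989 CPM per kb had overlapping intervals of mean ± SD, and mean Ccl8 stood above Ccl9 in ApoE-/- and below it in WT aortas. Ccl7, Ccl12 and Ccl2 were at 1.42 ± 0.747, 1.16 ± 0.802 and 1.15 ± 0.227 CPM per kb. Ccl5 was at 0.650 ± 0.171, while Ccl3, Ccl22 and Ccl4 were at 0.152 ± 0.159, 0.10 ± 0.0428 and 0.0909 ± 0.0867 CPM per kb. The exon lengths cover all annotated transcripts of a gene, so the levels per kb depend on that annotation.

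The summed CPM of the 10 chemokines was 79.6, 111, 122 and 320 in ApoE-/- replicates 1 to 4 and 52.3, 49.9, 47.2 and 70.8 in WT replicates 1 to 4. The sums did not overlap between genotypes. Ccl6 and Ccl9 together made up 65.4% to 81.4% of the sum in ApoE-/- and 84.8% to 90.1% in WT aortas, a lower share in every knockout aorta. Ccl8 made up 7.60% to 16.3% in ApoE-/- and 4.39% to 5.92% in WT aortas, and Ccl9 alone 27.6% to 33.08% and 33.11% to 36.2%, both without overlap. These shares are of counts, which also scale with transcript length. Those of Ccl2 overlapped, at 2.48% to 6.84% in ApoE-/- and 2.00% to 2.72% in WT aortas.

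**Figure D3:**
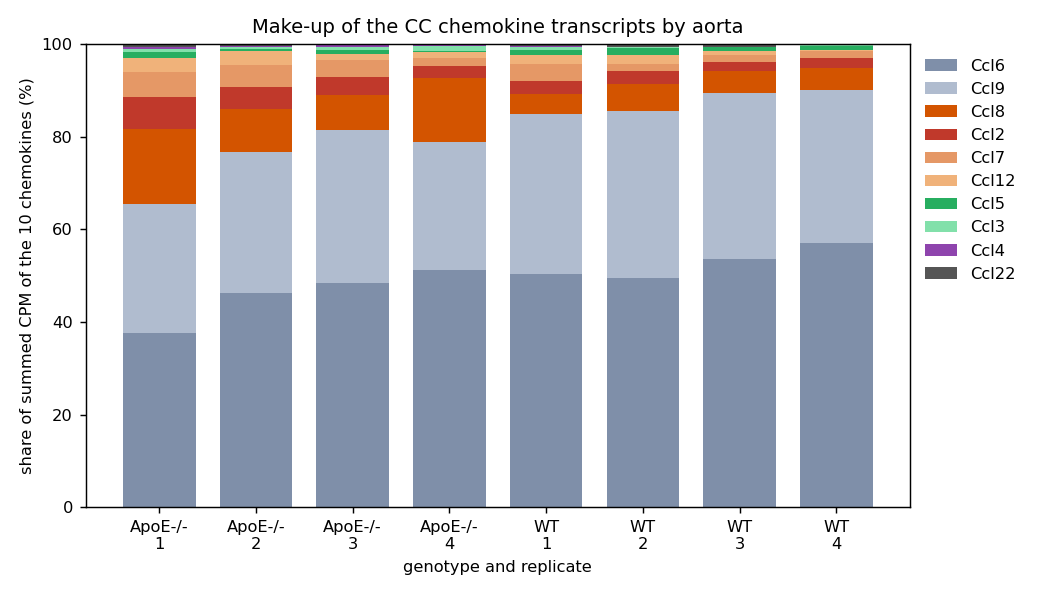
Share of each of the 10 CC chemokines in their summed CPM (vertical axis, stacked bars, percent) in each aorta (horizontal axis, genotype and replicate). Ccl6 and Ccl9 (blue-grey) together fill 65.4% to 81.4% of the bar in ApoE-/- and 84.8% to 90.1% in WT aortas, and Ccl8 (dark orange) is wider in every ApoE-/- aorta.

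Leukocyte markers are given beside these levels. Of 11 macrophage markers, 10 had no overlap between genotypes and were higher in ApoE-/- aortas, edgeR called 2 and DESeq2 7, and none was at 0. Over all tested genes these shares were 5.41%, 0.371% and 3.12%. Cd68, a lysosomal protein of macrophages, was at 12.7, 25.4, 37.9 and 64.3 CPM in ApoE-/- replicates 1 to 4 and at 5.54 to 9.09 CPM in WT aortas. Adgre1, which encodes the F4/80 antigen, was at 23.2, 34.2, 36.7 and 70.7 CPM and at 14.2 to 19.6 CPM. Summed CPM of the 11 macrophage markers, to which Lyz2 and Mertk gave 48.5% and 22.8% over all 8 libraries, was 363, 775, 929 and 1591 in ApoE-/- replicates 1 to 4 and 309 to 369 CPM in WT aortas, with overlap through ApoE-/- replicate 1. Summed CPM of 6 neutrophil markers was 7.43 to 16.8 in ApoE-/- and 2.27 to 3.26 in WT aortas, and that of 5 B cell markers 6.29 to 16.9 and 3.99 to 6.27, both without overlap, although the lowest ApoE-/- and highest WT B cell sums were close. Of the neutrophil markers 2 were tested, of which edgeR called 1 and DESeq2 2 higher in ApoE-/- aortas. edgeR and DESeq2 called 0 of 5 B cell markers and 0 of 5 tested T and NK cell markers, with 3 in each list at an unadjusted edgeR p under 0.05. Of 7 dendritic cell markers, 5 had an unadjusted edgeR p under 0.05, in both directions. edgeR called 1, Itgax, the integrin CD11c, which macrophages can also express, at 7.31 to 55.0 CPM in ApoE-/- and 1.16 to 1.83 CPM in WT aortas (log2 fold change 4.44, SE 0.61, adjusted p = 0.0380), whereas Zbtb46 and Clec9a were lower in ApoE-/- aortas without overlap, Clec9a also called by DESeq2. The dendritic cell sum (71.5 to 125 in ApoE-/- and 81.0 to 95.6 in WT aortas) and that of 6 mast cell markers (27.4 to 92.4 and 27.3 to 57.8), of which edgeR and DESeq2 called 0, overlapped. Of 7 markers of resident adventitial macrophages, edgeR and DESeq2 called 0 and 1 had an unadjusted edgeR p under 0.05, as had 1713 of 15077 tested genes. Their sum overlapped, at 248 to 845 CPM in ApoE-/- and 321 to 378 CPM in WT aortas.

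Ccl6, Ccl9 and the marker sum put the 4 ApoE-/- aortas in the same order, replicate 1, 2, 3, 4 from low to high, whereas Ccl2 and Ccl8 were lowest in replicate 3. As a share of the marker sum, Ccl6 was 6.33% to 10.3% in ApoE-/- and 7.13% to 11.5% in WT aortas, and Ccl9 4.33% to 6.10% and 4.90% to 6.68%, all with overlap. Ccl2 was 0.497% to 1.5% of the sum in ApoE-/- and 0.288% to 0.440% in WT aortas, without overlap. Ccl8 was 0.994% to 3.58% and 0.622% to 0.955%, also apart (p = 0.0286 for each by the two-sided exact permutation test, adjusted p = 0.143 over the 10 genes). The separation depended on the scale. Against the mean log2 level of the same markers, which weights them equally, both Ccl2 (exact permutation p = 0.114) and Ccl8 (p = 0.0857) overlapped, and Ccl9 was lower in ApoE-/- aortas without overlap (p = 0.0286, adjusted p = 0.245). The part of macrophage or other leukocyte number in the chemokine levels was not tested.

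**Figure D4:**
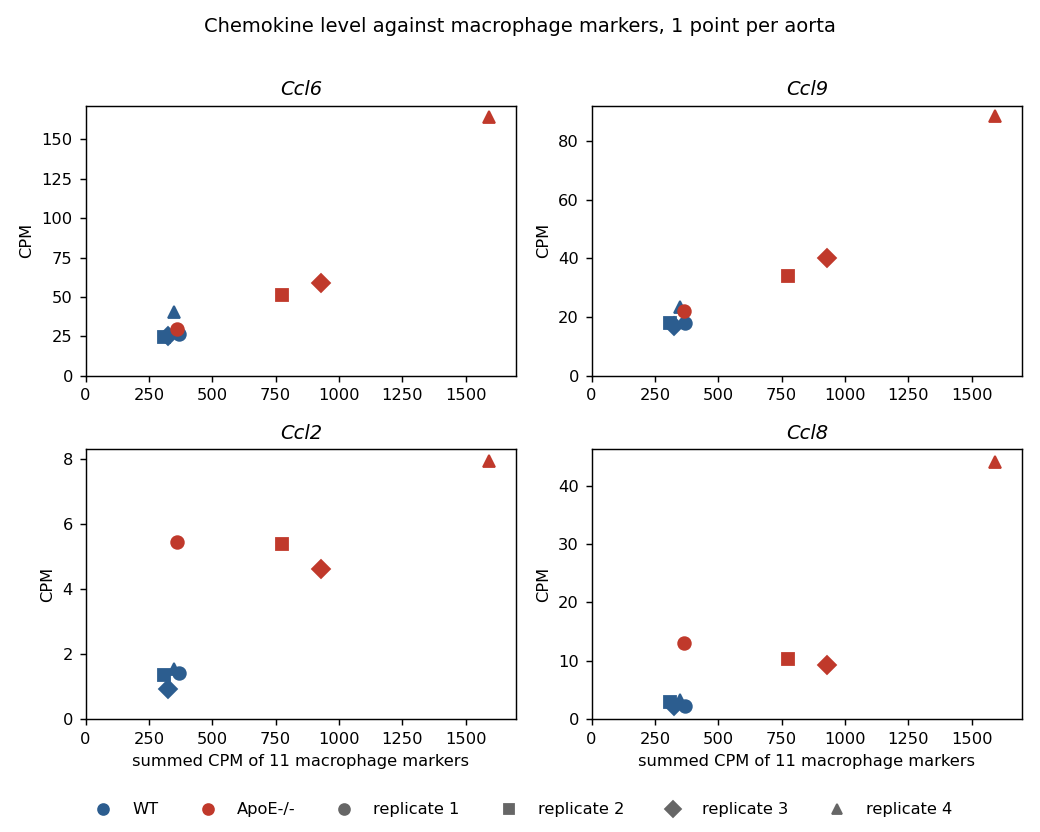
CPM of Ccl6, Ccl9, Ccl2 and Ccl8 (vertical axes) against the summed CPM of 11 macrophage markers (horizontal axes), with 1 point per aorta, colour for genotype and symbol for replicate. ApoE-/- replicate 1, at a marker sum of 363, lies among the WT aortas for Ccl6 (29.9 CPM) but above them for Ccl2 (5.44 CPM) and Ccl8 (13 CPM).

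The genes whose pattern over the 8 libraries was most like that of Ccl2, by the root mean square difference of centred log2 CPM, were Csf3r (0.18), Ncf4 (0.20) and Cd52 (0.28). Csf3r encodes the receptor of granulocyte colony-stimulating factor, Ncf4 a subunit of the phagocyte oxidase and Cd52 a surface glycoprotein of leukocytes. Their log2 fold changes were 1.97, 2.25 and 1.66.

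Of 15 receptors of CC chemokines, decoys included, 10 were tested and edgeR called 1, against 0.464% of tested genes called in either direction. DESeq2 called 4 of the 10, against 4.81% of tested genes in either direction. Among these were Ccr1, the receptor of Ccl3, Ccl6 and Ccl9, at 4.22, 6.30, 4.53 and 14.2 CPM in ApoE-/- replicates 1 to 4 and at 1.5 to 2.48 CPM in WT aortas (log2 fold change 1.81, SE 0.42, edgeR adjusted p = 0.107), Ccr2 (1.34, SE 0.39, edgeR adjusted p = 0.186) and Ackr4. Ackr4, a decoy that clears the ligands of Ccr7 and Ccr9, was lower in ApoE-/- aortas, at 9.98 to 15.8 CPM against 18.3 to 32.2 CPM (log2 fold change -0.84, SE 0.21, DESeq2 adjusted p = 0.00864). Averaged over the 2 genotypes, Ackr1, Ackr4 and Ccrl2 had the highest levels per kb, at 4.87, 3.42 and 3.21 CPM per kb. Ackr1 was at 18.1 CPM in ApoE-/- replicate 1 and at 3.19 to 5.66 CPM in the other ApoE-/- aortas, against 4.96 to 7.68 CPM in WT aortas, so its ApoE-/- mean rests on 1 library. By genotype, Ackr1 (5.49 ± 4.96 CPM per kb, SD, n = 4) and Ccr2 (4.25 ± 2.01) had the highest means in ApoE-/- aortas, where Ackr4 was at 2.46 ± 0.449, and Ackr4 (4.39 ± 1.12) and Ackr1 (4.24 ± 0.880) in WT aortas, where Ccr2 was at 1.67 ± 0.557 CPM per kb. Neither leading pair was apart by more than its spread.

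**Figure D5:**
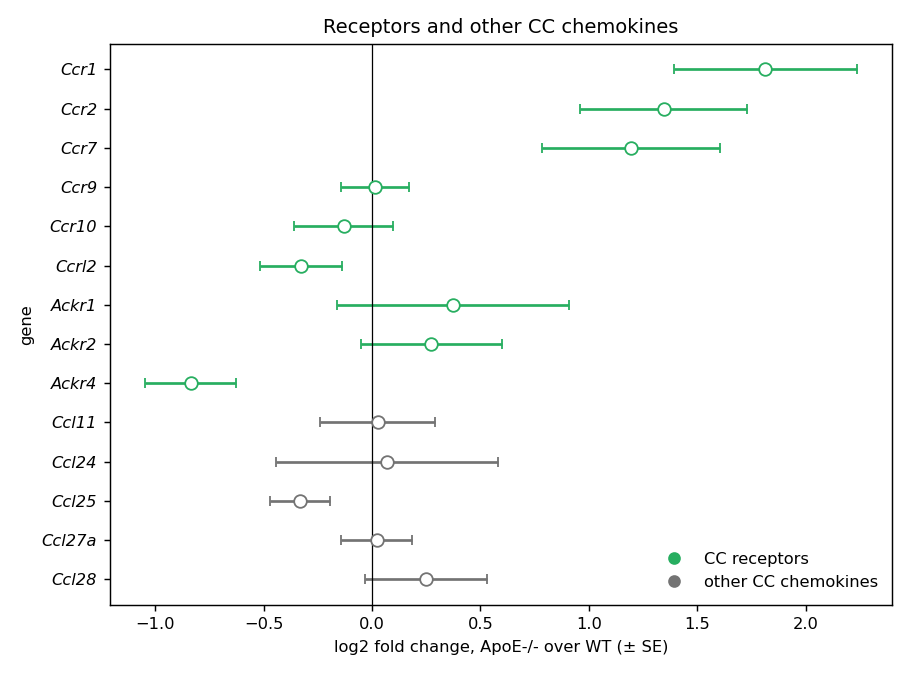
Log2 fold change of ApoE-/- over WT (horizontal axis, points, bars show the SE) for 9 of the tested CC receptors (green) and the 5 tested other CC chemokines (grey). None of the genes drawn passed the edgeR threshold. Ccr1 lies at 1.81, Ackr4 at -0.84, and the 5 other chemokines lie between -0.33 and 0.25.

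Of 14 other CC chemokines, 5 were tested, Ccl11, Ccl24, Ccl25, Ccl27a and Ccl28, with log2 fold changes of -0.33 to 0.25. edgeR, DESeq2 and limma-voom each called 0, against 0.464%, 4.81% and, for genes higher in ApoE-/- aortas, 0.139% of tested genes. Ccl25 alone had an unadjusted edgeR p under 0.05, as had 1713 of 15077 tested genes. Ccl11, Ccl25 and Ccl27a led the list by level, at 15.4, 2.12 and 1.54 CPM per kb, and Ccl1, Ccl20, Ccl21a and Ccl27b were listed at 0 in all 8 libraries. Among those below the filter, Ccl17, a ligand of Ccr4 as is Ccl22, was at 0.244, 0.481, 0.392 and 0.477 CPM in ApoE-/- replicates 1 to 4 and at 0.140 to 0.229 CPM in WT aortas, without overlap (two-sided exact permutation p = 0.0286, the smallest this design allows). Ccl19, a ligand of Ccr7, was at 0.262 to 0.825 CPM and at 0 to 0.367 CPM, with overlap. Both were named after their values were seen, and both rest on 19 or fewer counts per library.

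Among 17 inducers, the NF-kB factors, their inhibitors and cytokines that switch on chemokine genes, 15 were tested and edgeR and limma-voom each called 0, with 7 at an unadjusted edgeR p under 0.05, against 1713 of 15077 tested genes. DESeq2 called 4, all higher in ApoE-/- aortas, where it called 3.12% of tested genes higher, edgeR 0.371% and limma-voom 0.139%. Il1b, the cytokine interleukin-1 beta, was at 1.92 to 3.08 CPM in ApoE-/- and 0.479 to 1.24 CPM in WT aortas (log2 fold change 1.75, SE 0.36, edgeR adjusted p = 0.0753). Bcl3, an atypical inhibitor of the NF-kB family, was 1.35 higher on the log2 scale (SE 0.23, edgeR adjusted p = 0.0526), Tnfaip3, the feedback inhibitor A20, 0.94 (SE 0.24) and Relb, a subunit, 0.51 (SE 0.14). Bcl3 and Relb lie on chromosome 7, as does the targeted gene Apoe, and an effect of sequence linked to the knockout allele cannot be told apart from the genotype. The leading genes by level, Nfkbia, Rela and Nfkbiz, at 71.9, 20.2 and 14.7 CPM per kb, had log2 fold changes of 0.25, 0.12 and 0.20.

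Of 12 genes that act on chemokine mRNA or protein, 11 were tested. edgeR called Mmp12, the macrophage elastase, which cleaves several CC chemokines, at 9.21, 59.7, 89.1 and 140 CPM in ApoE-/- replicates 1 to 4 and at 0.527 to 1.73 CPM in WT aortas (log2 fold change 5.82, SE 0.85, adjusted p = 0.0396). Over all tested genes edgeR called 0.464%. limma-voom called 0 of these genes, against 0.139% of tested genes called higher, and 3 had an unadjusted edgeR p under 0.05, as had 1713 of 15077 tested genes. DESeq2, which called 4.81% of tested genes, also called Mmp2, which truncates Ccl7, and Mmp14, its activator, with log2 fold changes of 1.18 (SE 0.21) and 1.17 (SE 0.20). As the mean of the 2 genotypes, among the genes of the list with an exon length, Mmp2 was highest, at 42.1 CPM per kb, with 58.3 in ApoE-/- and 25.8 in WT aortas, where Zfp36l1 (31.2), Zfp36l2 (28.4) and Zfp36 (27.9) were above it. Zfp36l1 and Zfp36l2, which bind AU-rich mRNA, were at 32.9 and 27.7 CPM per kb over both genotypes, with log2 fold changes of 0.15 and -0.07.

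Reads of the 10 chemokines were, with few exceptions, particular to their genes. Of the 50-base windows in their transcripts, none was shared with a transcript of another gene for 9 of them, and 59 of 2996 were shared for Ccl9. Gm17268, annotated on the opposite strand over the whole of Ccl2, had 0 to 4 counts per library in these strand-specific counts. E230016K23Rik, annotated opposite Ccl6, was not analysed here.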

How the data were processed

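RNA of 8 whole aortas, 1 library per mouse, was sequenced by the authors as stranded, ribodepleted, paired-end 50-base libraries. The deposited values are raw counts of pairs on each gene, neither normalized nor pooled. The submitters' processing notes name TopHat2 and HTSeq and the build GRCm38 (mm10), with versions and annotation not given in the sources used here. Genotypes were taken from the labels. Replicates were separate mice.

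R 4.3.3 was used. Genes passing filterByExpr of edgeR 4.0.16 (15077) were compared by the quasi-likelihood F test (TMM, robust) with Benjamini-Hochberg adjustment. The SE is the log2 fold change divided by the square root of F. DESeq2 1.42.0 and limma-voom (limma 3.58.1), other scalings and filters, a replicate block and leaving out each mouse were alternatives. Exact permutation tests used all 70 assignments. Differences of log2 levels used a prior count of 2, and those against macrophage markers a pseudocount of 0.1. Counts gave CPM steps of 0.0406 to 0.0554 per count. The tests were tried on simulated counts. Positions came from GENCODE M21 and promoters from RefSeq. Values of 1 receptor are not reported here.

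All 10 chemokines were named, with genes of 4 pathway lists past either threshold, the 3 highest per kb of each list, the 3 genes most like Ccl2 and 5 marker genes. Ccl17, Ccl19, Cx3cl1, Lyz2, Mertk, Itgax, Zbtb46, Clec9a, Lum and Col1a1 were added after their values were seen. Members and lists were chosen with earlier results of these data known. Ccl11 differences, the log2 marker scale and DESeq2 without each mouse were added after seeing the data.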

Additional observations from a re-analysis of the deposited data

Results flagged for a closer look

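In 2 of 22 groups of 4 aortas, 1 aorta stood further from its group than Dixon's 95% critical value for 4 samples allows, where chance alone gives about 5% of groups. For Ccl8 in ApoE-/- mice, replicate 4, at 44.1 CPM against 9.23 to 13 CPM, had a gap of 0.892 of the group's range. For Ccl6 in WT mice, replicate 4, at 40.4 CPM against 24.6 to 26.3 CPM, had a gap of 0.894 of the range.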

How the results depend on the processing

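Of the 10 chemokines, edgeR called 1, DESeq2 6, limma-voom 2 and edgeR with a replicate block 0. With the replicate block, edgeR called 2 of all 15077 tested genes (0.0133%). Without each mouse in turn, edgeR and DESeq2 called 0 to 7. edgeR alone called 4 without ApoE-/- replicate 1 (Ccl2, Ccl7, Ccl8 and Ccl9) and 0 without any other mouse, where it called 0 to 17 of all tested genes. DESeq2 called 3 to 7, with 7 without ApoE-/- replicate 1. Without that mouse edgeR called 3.91% of all tested genes and DESeq2 10.3%, against 0.464% and 4.81% with all mice. Levels without overlap were found for 5 of 8 tested chemokines, and for 3 of 5 with at least 10 counts in every library. With a mouse left out the number was 4 to 7, of 7 to 9 tested. Smaller groups separate more readily, and the share over all tested genes, 5.41%, was taken with all mice only. The numbers with a mouse left out are thus not read as stability. For receptors the count was 1 by edgeR, 4 by DESeq2, 0 with the replicate block and 0 to 4 without a mouse. For NF-kB genes and inducers it was 0 by edgeR, 4 by DESeq2 and 0 to 7 without a mouse, and for genes acting on chemokine mRNA or protein 1 by edgeR, 3 by DESeq2, 0 by limma-voom, 0 without a filter, 0 with the replicate block and 0 to 3 without a mouse. The causes were not tested. No fold change of a tested chemokine changed sign under these settings. Of 122 other settings fixed for single fold changes, 105 stayed on their side of the threshold, 9 passed it and 8, all for Ccl2, lost it. One of these 8 was the replicate block (adjusted p = 0.0977). Mice with the same number did not pair (correlation of deviations -0.45 to 0.32). Ccl3, Ccl4, Ccl12 and Ccl22 had 3 or fewer counts in at least 1 WT library, so depth limits them. There, 3 counts, the limit that a count of 0 allows, correspond to 0.122 to 0.166 CPM over the libraries.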
